A study of Mus musculus with 7 samples.

Results

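The sites described here are stretches of open chromatin at the 3′ ends of protein-coding genes in LSK cells, the Lin- Sca1+ c-Kit+ bone marrow fraction with the hematopoietic stem cells and the multipotent progenitors. A peak belonged to the set when its summit lay within 500 bp of a gene's annotated 3′ end, outside coding exons and more than 2000 bp from every protein-coding start site. Summits of the 7 libraries that lay within 150 bp of each other were joined into 1 site. This gave 2405 sites of 248130 autosomal sites in all. The rule used positions only, not the strength of the sites or their difference between groups. A site entered when at least 1 of its summits, from any library, met the rule, so sites with more summits had more chances to enter.

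ATAC-Seq marks accessible DNA by the insertions of a transposase and was carried out on 50000 sorted LSK cells per library. The 4 WTAkita libraries came from adult wild-type offspring of Ins2Akita/+ dams, which carry a mutated insulin gene and are diabetic during pregnancy. The 3 Ctrl libraries came from adult offspring of a normal pregnancy. Mice of both groups were C57/BL6, carried no mutation themselves, were born to dams that had received a diet of 60 kcal% fat over the 3 weeks ahead of mating, were kept on 13 kcal% fat and were analysed at 8 to 12 weeks of age. For cell sorting the study describes pools of bone marrow cells, and the sources used here do not give the number of mice behind a library. The p-values therefore reflect how libraries vary, which may be partly technical. The promoters of all 10 LSK marker genes examined, Kit, Flt3 and Mecom among them, were called open in all 7 libraries. Those of other cell types were open in part or in full. All 5 stromal and endothelial marker promoters were called in all 7, as were 4 of 5 erythroid, 4 of 5 macrophage and monocyte, 3 of 4 megakaryocyte, 3 of 5 B cell, 2 of 5 T and NK cell and 2 of 6 neutrophil ones.

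The 3′ end of a gene is where the nascent transcript is cut and polyadenylated and where RNA polymerase II leaves the template. The cut follows an AATAAA signal, and the DNA around it is rich in A and T. Accessible DNA near a 3′ end can hold an enhancer, a binding site of the insulator protein CTCF or the start of a noncoding transcript. In bulk chromatin, fewer cells with an open site and a less open site in every cell cannot be told apart.

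Some of the sites lay just beyond the gene, outside any annotated exon, and their sequence is given here because the values below return to them. Each run covers 151 bp around the strongest summit in mm10, read 5′ to 3′ on the strand of the gene. Capitals mark matches, on either strand, to the core motifs listed further on. The first 3 sites were among the strongest of the set.
Nacc2, chr2:26055131-26055281, minus strand: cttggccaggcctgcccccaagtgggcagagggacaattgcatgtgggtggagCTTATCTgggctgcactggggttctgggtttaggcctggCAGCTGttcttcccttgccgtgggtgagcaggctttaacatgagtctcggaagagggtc
Ankrd45, chr1:161170757-161170907, plus strand: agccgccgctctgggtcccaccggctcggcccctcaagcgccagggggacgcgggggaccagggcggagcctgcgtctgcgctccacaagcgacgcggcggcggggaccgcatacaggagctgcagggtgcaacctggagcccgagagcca
Brms1l, chr12:55869990-55870140, plus strand: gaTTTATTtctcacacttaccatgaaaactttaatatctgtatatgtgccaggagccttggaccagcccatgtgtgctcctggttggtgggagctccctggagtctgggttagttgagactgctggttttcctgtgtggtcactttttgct
Capitals in Nacc2 mark a GATA motif, which reads CTTATCT on this strand, and an E-box, in Brms1l an AATAAA on the other strand, and in Ankrd45 no motif lies this close to the summit. The next 3 sites were among those higher in WTAkita libraries with no overlap between the groups.
Aebp2, chr6:140678648-140678798, plus strand: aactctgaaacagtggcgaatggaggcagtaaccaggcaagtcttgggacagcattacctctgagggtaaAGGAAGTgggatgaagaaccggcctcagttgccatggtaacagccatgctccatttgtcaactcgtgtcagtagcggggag
Irgq, chr7:24538792-24538942, plus strand: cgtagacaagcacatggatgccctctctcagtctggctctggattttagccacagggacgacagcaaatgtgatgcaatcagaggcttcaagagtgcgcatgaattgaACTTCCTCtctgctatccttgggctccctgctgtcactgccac
Spon1, chr7:114043647-114043797, plus strand: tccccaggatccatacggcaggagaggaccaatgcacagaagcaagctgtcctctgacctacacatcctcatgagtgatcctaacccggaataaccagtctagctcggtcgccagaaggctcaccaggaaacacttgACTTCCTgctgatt
In these 3 sites the capitals mark an ETS core, AGGAAGT or its complement, and in Irgq also an overlapping PU.1 core. The sites at Fkbp1b and Csf1, also higher and outside exons but not printed, held no listed motif this close to the summit. The printed sites therefore do not stand for the higher sites as a whole. The last 3 were the Myl9 site, called in Ctrl libraries only, the Procr site at a stem cell surface marker, and the Bean1 site near a noncoding start.
Myl9, chr2:156781924-156782074, plus strand: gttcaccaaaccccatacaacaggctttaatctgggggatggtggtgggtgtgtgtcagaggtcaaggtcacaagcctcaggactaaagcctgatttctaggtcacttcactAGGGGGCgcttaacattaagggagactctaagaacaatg
Procr, chr2:155755793-155755943, plus strand: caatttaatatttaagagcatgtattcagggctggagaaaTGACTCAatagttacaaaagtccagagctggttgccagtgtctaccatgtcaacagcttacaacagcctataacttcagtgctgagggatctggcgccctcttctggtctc
Bean1, chr8:104219127-104219277, plus strand: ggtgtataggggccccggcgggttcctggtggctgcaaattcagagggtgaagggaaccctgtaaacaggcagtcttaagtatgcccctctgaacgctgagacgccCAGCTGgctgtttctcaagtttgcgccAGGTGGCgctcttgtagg
Capitals mark a CTCF core in Myl9, an AP-1 core in Procr, and an E-box and a CTCF core in Bean1.

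The sites were not spread evenly around the 3′ end. For this profile each site called in all 7 libraries was placed at its strongest summit, and its count was divided by the length of sequence that could have met the rule. The last 100 bp of the gene held 33.5 sites per eligible Mb (55 sites). The 100 bp after the end held 63.1 per Mb (107 sites), so the density before the end was 0.531 of that after it. From 100 to 500 bp the density was 74.7 per Mb on the side of the gene and 91.2 per Mb beyond it. The gap appeared in every library, with ratios of 0.554, 0.612, 0.530 and 0.635 in the WTAkita libraries and 0.560, 0.606 and 0.671 in the Ctrl libraries. The ranges of the groups overlapped. The GC content of the genome fell along with it: it was 33.7% in the last 50 bp of genes, against 45.4% in the stretch from 100 to 500 bp beyond the end. The part of GC content in the gap was not tested.

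**Figure D1:**
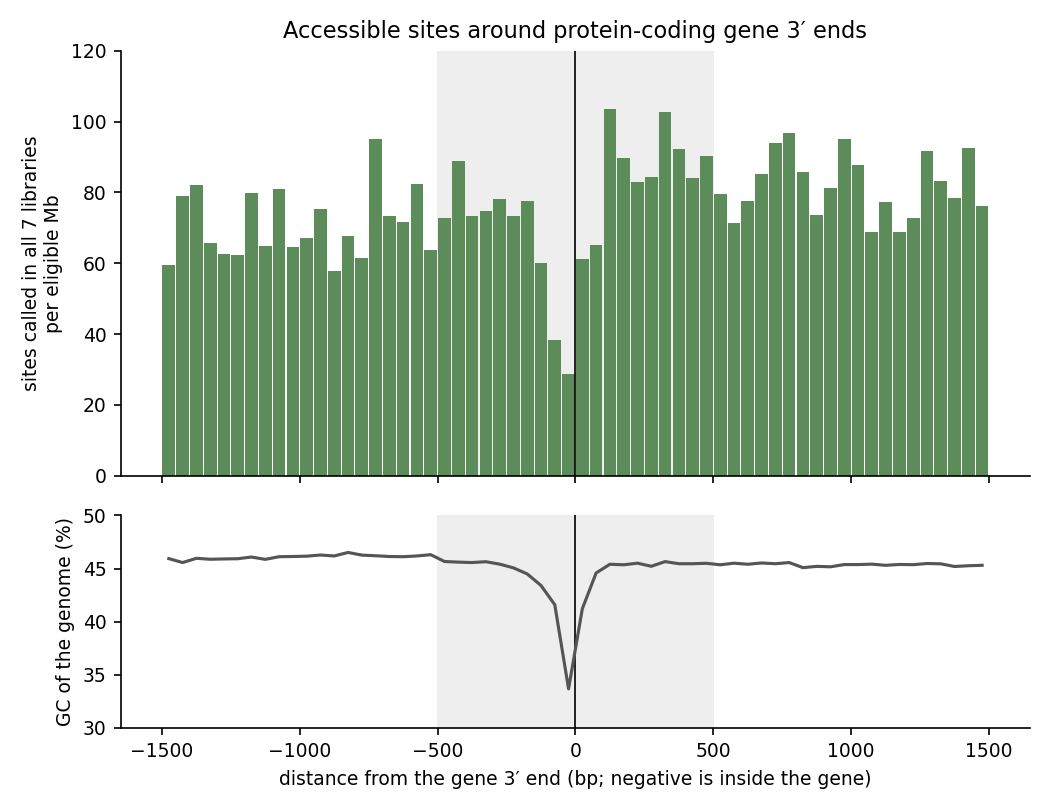
Density of accessible sites called in all 7 libraries around the 3′ ends of autosomal protein-coding genes, in 50 bp bins, over sequence outside coding exons and more than 2000 bp from a start site (upper panel, sites per eligible Mb), and GC content of the genome in the same bins for a regular sample of these genes (lower panel, %). Shading marks the 500 bp on either side that the rule takes, and the lowest bin, 28.8 sites per Mb, is the last 50 bp of the gene.

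Farther out the density was somewhat lower on both sides, at 70.9 per Mb from 500 to 1500 bp before the end and 81.9 per Mb from 500 to 1500 bp beyond it. Over the whole windows it was 76.3 per Mb (1215 sites), against 52.7 per Mb in other distal sequence inside protein-coding genes and 40.1 per Mb in all other distal sequence. At the edge of the rule, 238 members had their nearest summit 451 to 500 bp from the end and 54.2% of them were called in all 7 libraries. Of the 241 sites just outside, at 501 to 550 bp, 47.7% were. The median strength of those called in all 7 was at percentile 65.0 inside the edge and 60.1 outside it.

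Of the 2405 sites, 1343 (55.8%) lay beyond the 3′ end and 988 (41.1%) in an annotated UTR. They belonged to 1948 of 20807 autosomal protein-coding genes, or 9.36%, and 397 genes had more than 1 site. Clk1, which encodes a kinase of splicing factors, Mustn1 and Sema6c had 4 each, the most at any gene. Not all of these were called in every library. The Clk1 sites were called in 7, 6, 3 and 1 libraries, those at Mustn1 in 7, 1, 1 and 1, and those at Sema6c in 7, 7, 6 and 2. At Sema6c, a semaphorin gene, the strongest of the 4 sites lay 333 bp beyond the end and the next 397 bp before it, and both were called in all 7 libraries. In 94 cases the 3′ end of a gene on the opposite strand lay within 500 bp too. Of these, 56 were called in all 7 libraries, with a median strength at percentile 70.2, against 62.3 for the other members called in all 7. A further 101 sites lay within 1000 bp of the start of a noncoding gene.

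The libraries called most of the sites alike. A site counted as called in a library when the authors' peak list held a summit there, and 1287 of 2405 sites were called in all 7 (53.5%, 95% Wilson interval 51.5 to 55.5%, counting error only). Of all 248130 autosomal sites, 53.3% were. A further 401 members (16.7%) were called in 1 library only, against 16.1% of all sites. The WTAkita libraries called 1637, 1723, 1780 and 1787 members, and the Ctrl libraries 1699, 1773 and 1762. The WTAkita range thus held all Ctrl values, and the means were 1732 ± 69.4 (SD, n = 4) and 1745 ± 39.9 (SD, n = 3). Members made up 0.950% to 0.979% of the sites called in a WTAkita library and 0.954% to 0.977% in a Ctrl library.

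Strength was read as fold enrichment, the authors' ratio of the read pileup at the summit to the background around it. Its median over the members called in a library was 4.84, 4.91, 5.84 and 5.72 in the WTAkita libraries and 5.21, 5.62 and 5.68 in the Ctrl libraries. The lowest values came from WTAkita 1, WTAkita 2 and Ctrl 1, which also had the lowest median over all their peaks, 4.68, 5.03 and 5.11, against 5.45 to 5.66 in the other 4 libraries. Since fold enrichment follows the library, sites were also ranked by percentile within each library, where 100 is the strongest site of that library. Members called in all 7 had a median percentile of 62.7, against 62.3 for other distal sites, 59.5 for sites in coding exons and 64.7 for sites within 1000 bp of a start. Of the members called in all 7, 149 (11.6%) had a mean percentile of at least 90, as did 12.6% of other distal sites. Their median summit pileup was 53, 64, 64 and 74 tags in the WTAkita libraries and 62, 82 and 59 in the Ctrl libraries.

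In base composition the members stood close to other distal sites. The median GC content of the 301 bp around the summit was 50.8%, against 48.8% for other distal sites, 57.5% for sites in coding exons and 61.8% for sites near starts. They held 5.44 CpG dinucleotides per 301 bp on average, against 4.71 in other distal sites and 20.6 near starts. The median peak was 482 bp wide, against 481 bp for other distal sites and 1039 bp near starts.

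The core motifs of regulators of blood formation were then counted in the same 301 bp, on both strands, in sites called in all 7 libraries. A match is a run of letters and not a measured binding site. A CTCF core, AGGGGGC with its variant AGGTGGC, was present in 23.2% of the members (95% Wilson interval 20.9 to 25.5%), in 17.9% of all sites, in 16.4% of other distal sites and in 24.0% of sites in coding exons. Among sites with a mean percentile of at least 90, it was present in 30.2% of members and in 21.4% of all sites. A site with both cores was counted once. The ETS core AGGAAGT was found in 19.4% of members, 24.6% of other distal sites and 20.7% of all sites. For the partly overlapping PU.1 core GAGGAAG these shares were 23.2%, 25.5% and 23.1%, and for the GATA core, AGATAAG, 3.34%, 4.45% and 3.70%. RUNX, TGTGGTT, stood at 12.9% of members, below the 14.4% of other distal sites and above the 11.9% of all sites. The same order held for AP-1, TGANTCA, with 11.0% of members, 12.1% of other distal sites and 10.3% of all sites, and for the C/EBP core TTGCNNAA with 11.8%, 12.8% and 11.5%. The E-box CAGCTG was found in 21.8% of members, 20.4% of other distal sites and 19.8% of all sites. The polyadenylation signal AATAAA was present in 28.3% of members, 22.1% of other distal sites and 18.7% of all sites. In 19.3% of the members it lay on the strand of the gene and in 12.7% on the other strand. The rule takes sites near 3′ ends, where this signal lies, so the higher share of members cannot be told apart from that choice.

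The 12 strongest sites had fold enrichments of 20.04 to 37.8 in every library. At the Gm8113 site, in the annotated UTR of a predicted gene, fold enrichment was 27.6, 29.8, 34.7 and 31.8 in WTAkita libraries and 27.2, 37.5 and 34.1 in Ctrl libraries. At Nacc2, which encodes a BTB-domain transcriptional repressor, the site 329 bp beyond the end had 25.6, 29.98, 31.5 and 37.8 in WTAkita libraries and 28.6, 33.8 and 32.3 in Ctrl libraries. The groups overlapped at both sites, with the lowest values in the libraries of low enrichment.

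Flot2 encodes flotillin-2, a protein of membrane microdomains. Its site 83 bp beyond the end had fold enrichments of 26.7, 28.6, 33.3 and 33.4 in WTAkita libraries and 27.4, 31.2 and 31.1 in Ctrl libraries. The site held a CTCF core within its 301 bp. Its groups overlapped as deposited. After normalization every WTAkita value was above every Ctrl value, with a difference of 0.09 ± 0.05 (SE) on the log2 scale. At Ankrd45 the site of the printed sequence, 334 bp beyond the end and with 73.8% GC, had 26.9, 25.7, 27.5 and 31.8 in WTAkita libraries and 28.1, 30.3 and 28.2 in Ctrl libraries. At Brms1l, a subunit gene of the Sin3 deacetylase complex, the values were 23.4, 25.8, 30.7 and 31.2 in WTAkita libraries and 28.6, 28.0 and 27.2 in Ctrl libraries. Neither site separated the groups.

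Thpo encodes thrombopoietin, a factor that maintains hematopoietic stem cells. The site in its annotated UTR, 138 bp before the end at chr16:20724592-20724609, had fold enrichments of 20.1, 26.2, 33.6 and 36.2 in WTAkita libraries and 31.2, 37.4 and 32.8 in Ctrl libraries. WTAkita 1 and WTAkita 2 lay below every Ctrl library and the other 2 within the Ctrl range. After normalization between libraries the difference was −0.17 ± 0.10 (SE) on the log2 scale. It ranged from −0.25 to −0.07 with 1 library left out, −0.07 without WTAkita 1, and was −0.0059 without the 3 libraries of lowest enrichment.

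Of the remaining strongest sites, those at Cyp4f13, a cytochrome P450 gene, at Shd, Wfikkn2, Gpn1 and Doc2b lay in an annotated UTR and that at Tnfaip8l3 lay 492 bp beyond the end. Gpn1 encodes a GTPase needed for the nuclear import of RNA polymerase II. Wfikkn2, whose product binds growth factors of the TGF-β family, had the widest spread among these 6: 20.04, 22.8, 32.5 and 33.5 in WTAkita libraries and 26.3, 32.5 and 35.2 in Ctrl libraries. At Tnfaip8l3, Cyp4f13 and Shd some of the linked summits lay outside the rule, since only a share of 0.429, 0.571 and 0.714 of them met it.

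**Figure D2:**
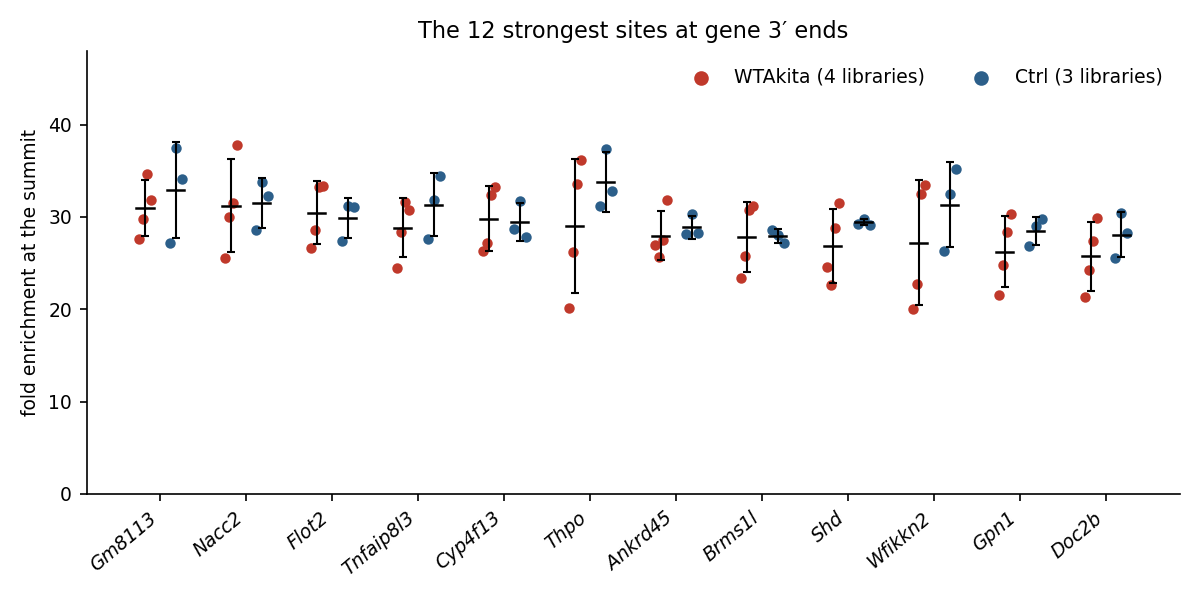
Fold enrichment at the summit of the 12 strongest sites at gene 3′ ends, with 1 point per library, WTAkita left of Ctrl, and the mean ± SD as black lines. The groups overlapped at every site as deposited, and the WTAkita points were spread most at Thpo, where they ran from 20.1 to 36.2.

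Whether the sites differed in WTAkita offspring was tested with limma on log2 fold enrichment, quantile-normalized, over the 132276 sites called in all 7 libraries. At an adjusted p under 0.05, 0 of 1287 members were higher in WTAkita and 0 were lower. The shares over all sites tested were 0% higher and 0% lower, and the smallest adjusted p was 0.9999 in limma. No other tool was run. At an unadjusted p under 0.05, limma gave 29 members higher (2.25%), against 1.8% of all sites tested, and 33 members lower (2.56%), against 2.08%. These shares are near the background. In 34 members every WTAkita value was above every Ctrl value (2.64%, against 2.48% of all sites), and in 43 every WTAkita value was below (3.34%, against 2.25%). The unadjusted counts depended on single libraries: without Ctrl 3 they were 19 higher (1.47%, against 1.78% of all sites) and 21 lower (1.62%, against 1.73%), and without WTAkita 4 there were 55 lower (4.28%, against 2.71%). With fold enrichment not normalized there were 8 higher (0.622%, against 0.503%) and 21 lower (1.63%, as over all sites). With pileup per tag, which was not quantile-normalized, there were 2 higher (0.155%, against 0.126%) and 7 lower (0.544%, against 0.923%). The tag numbers for it were estimated from the background level of each library.

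After normalization the differences were small on the whole. Quantile normalization gives every library the same distribution over all sites tested, so it removes an overall shift between the groups. The median over the 1287 members was −0.0066 on the log2 scale, with 619 above 0 and 668 below, against a median of 0.0060 over all sites tested. It was −0.017 to −0.0034 with 1 library left out and 0.0029 without the 3 libraries of lowest enrichment. Without normalization it was −0.069, against −0.056 over all sites, and with pileup per tag −0.13, against −0.12. Among members, 5% were below −0.26 and 5% above 0.25, and the range was −0.58 to 0.58. Over all sites the same percentiles were −0.26 and 0.25.

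**Figure D3:**
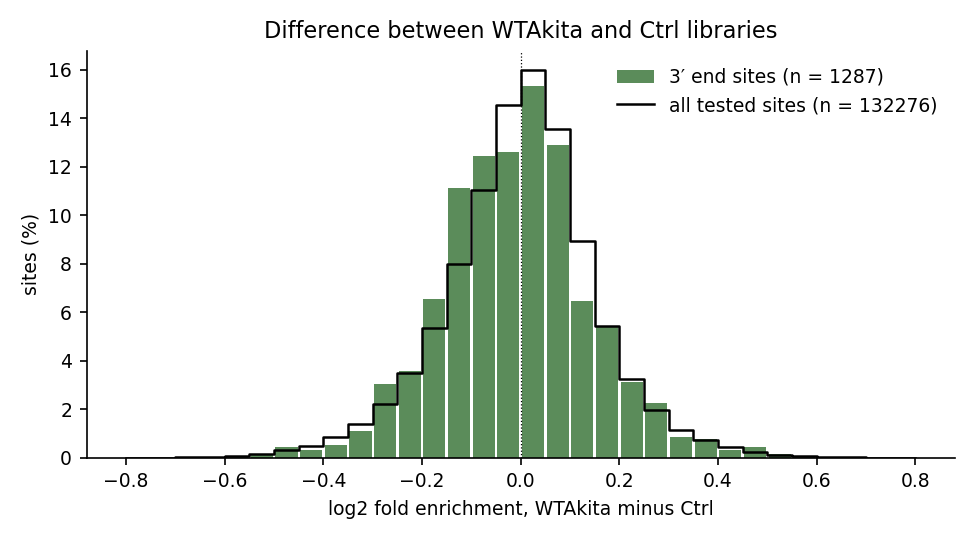
Distribution of the log2 difference in normalized fold enrichment, WTAkita minus Ctrl, in bins of 0.05. Bars give the share of the 1287 sites at gene 3′ ends and the line the share of all 132276 sites tested, both in %. Both are centred near 0 and of similar width. The normalization brings the centre over all sites near 0.

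Next come the members with the largest moderated statistics and no overlap between the groups. They are a description of the extremes, since none had an adjusted p below 0.9999 in limma. Aebp2 encodes a cofactor of the Polycomb repressive complex PRC2. Its site 251 bp beyond the end, whose sequence above holds an ETS core near the summit, had fold enrichments of 10.9, 10.8, 14.4 and 13.5 in WTAkita libraries and 9.55, 8.96 and 10.8 in Ctrl libraries. The lowest WTAkita value was just above the highest Ctrl value. The difference after normalization was 0.41 ± 0.11 (SE) on the log2 scale.

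At Irgq, an immunity-related GTPase gene, the site 267 bp beyond the end had 3.03, 3.61, 4.004 and 3.92 in WTAkita libraries and 2.48, 2.32 and 2.99 in Ctrl libraries. It was a weak site, with 14, 18, 16 and 17 tags at the summit in WTAkita libraries and 11, 11 and 11 in Ctrl libraries. The difference was 0.52 ± 0.14 (SE) on the log2 scale. At Spon1, which encodes the matrix protein F-spondin, the values were 12.7, 12.2, 14.1 and 14.7 in WTAkita libraries and 10.1, 12.2 and 11.8 in Ctrl libraries. The groups lay next to each other, and the difference of 0.31 ± 0.10 (SE) turned to −0.0090 when summits up to 300 bp apart were joined and to −0.0093 when overlapping peaks were merged.

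Csf1 encodes macrophage colony-stimulating factor. Its site 325 bp beyond the end had fold enrichments of 12.9, 14.0, 17.9 and 18.8 in WTAkita libraries and 13.8, 14.4 and 12.8 in Ctrl libraries. The groups overlapped as deposited and separated after normalization, with a difference of 0.27 ± 0.09 (SE) on the log2 scale. The same held for Tmx1, a thioredoxin-like gene of the endoplasmic reticulum, with 0.48 ± 0.14 (SE), and for Fkbp1b, whose product binds ryanodine receptors, with 0.53 ± 0.16 (SE). With any 1 library left out, the differences at Aebp2, Irgq, Tmx1, Spon1, Fkbp1b and Csf1 ranged from 0.21 to 0.65. These sites were picked for groups that do not overlap in these same libraries, so their sign was all but fixed by the choice.

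Among the lower sites, Pnliprp1, a gene of the pancreatic lipase family, had fold enrichments of 2.82, 3.23, 4.48 and 3.70 in WTAkita libraries and 5.17, 4.84 and 6.22 in Ctrl libraries. Every WTAkita value was below every Ctrl value, and the difference was −0.58 ± 0.16 (SE) on the log2 scale, the lowest of the 1287 members. At 2410131K14Rik, where the summit lay on the start of the snoRNA gene Gm25076, the values were 3.39, 3.82, 4.31 and 4.96 in WTAkita libraries and 5.65, 6.24 and 5.83 in Ctrl libraries. The groups did not overlap, and the difference was −0.49 ± 0.14 (SE).

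Chrm1 encodes the M1 muscarinic acetylcholine receptor, and its site was among the strongest near a noncoding start, 989 bp from that of Gm22820. It had fold enrichments of 15.4, 19.8, 23.8 and 25.2 in WTAkita libraries and 24.3, 26.6 and 25.8 in Ctrl libraries. WTAkita 4 lay within the Ctrl range as deposited, and after normalization all WTAkita values were lower, by −0.23 ± 0.08 (SE) on the log2 scale. Ssh1, a cofilin phosphatase gene, differed by −0.50 ± 0.18 (SE), Marveld3, a tight junction gene, by −0.39 ± 0.14 (SE) and Gstm3, a glutathione S-transferase gene, by −0.51 ± 0.18 (SE). At Gstm3 only a share of 0.143 of the linked summits met the rule, so this value describes mostly its neighbouring sequence, and it was −0.14 with overlapping peaks merged. With any 1 library left out, the differences at the other 5 lower sites ranged from −0.69 to −0.16, where the choice again all but fixed the sign. At Gstm3 they were −0.59 to −0.38 in the 5 of 7 such runs that gave a value, and the site had none without WTAkita 2 or WTAkita 4.

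**Figure D4:**
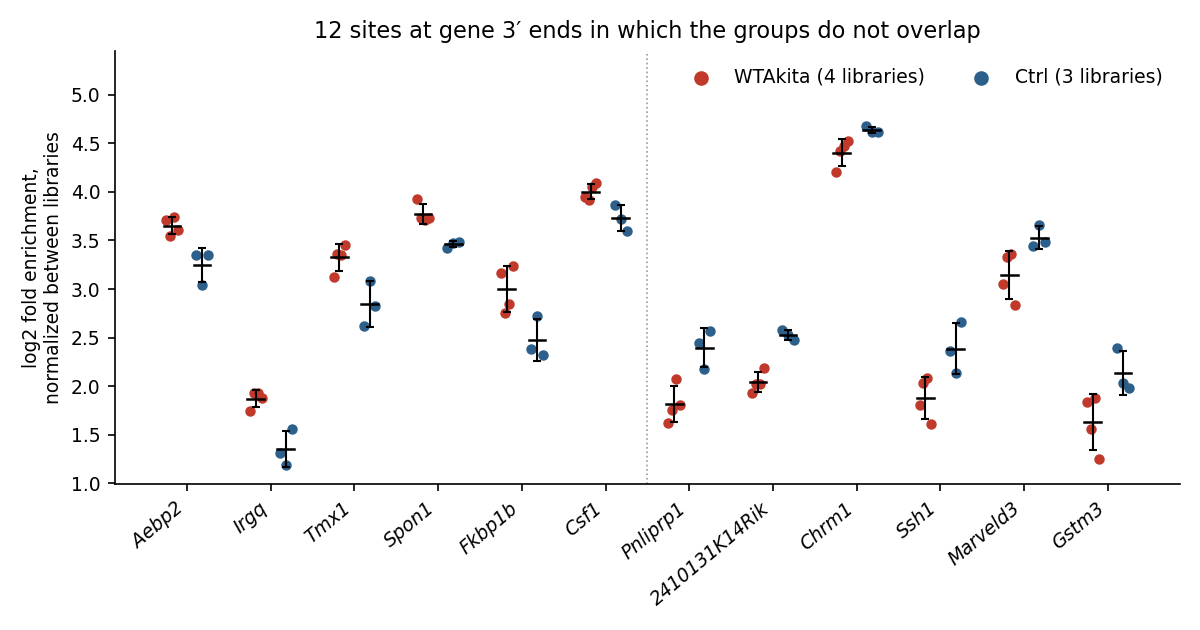
Normalized log2 fold enrichment in each library at 12 sites in which the groups do not overlap, 6 higher (left of the dotted line) and 6 lower in WTAkita, with the largest moderated statistics. Points are libraries, WTAkita left of Ctrl, and black lines the mean ± SD. Differences run from −0.58 at Pnliprp1 to 0.53 at Fkbp1b, and none passed the adjusted threshold.

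Sites called in all libraries of 1 group and none of the other were few. Called in all 4 WTAkita and no Ctrl libraries were 4 members (0.166%), against 0.11% of all sites, at Ptgds, Pomgnt1, Pitx1 and Lemd2. Their fold enrichments were low: the Lemd2 site had 2.59, 2.41, 2.84 and 3.29 in the WTAkita libraries, and at each of the 4 sites a Ctrl peak with its summit elsewhere reached into the site. Called in all 3 Ctrl and no WTAkita libraries were 3 members (0.125%), against 0.151% of all sites, at Nutm1, Tbc1d30 and Myl9. Only at Myl9, which encodes a smooth muscle myosin light chain, did no WTAkita peak touch the site. It had fold enrichments of 2.77, 2.68 and 3.72 from 15, 17 and 18 tags in the Ctrl libraries, where the weakest members called in all 7 had 9 to 11 tags, so a call in no WTAkita library does not show that the site was closed. With any 1 library left out, the counts were 7 to 11 for WTAkita and 4 to 13 for Ctrl. Leaving a library out asks for fewer calls or fewer missing calls, so a rise does not show that the counts depend on that library. Both counts changed by over 1.5 times without WTAkita 1, WTAkita 3, WTAkita 4, Ctrl 1, Ctrl 2 or Ctrl 3, and without WTAkita 2 the WTAkita count was 7.

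Genes of interest for this tissue and treatment were then examined by list. Of 50 transcription factor genes of stem and progenitor cells, 14 (28%) had a site at the 3′ end, against 9.36% of all autosomal protein-coding genes. Of their 18 sites, 11 were called in all 7 libraries, 5 with a difference above 0 and 6 below, with a median of −0.07. None passed the adjusted threshold, and none had an unadjusted p under 0.05 in limma. In strength the 11 were weak, with a median percentile of 25.1, against 62.7 for all members called in all 7. Irf4, Cbfb and Lmo2, described next, had the strongest sites of the list. At Irf4, a factor of lymphoid and myeloid cells, the site 30 bp beyond the end had fold enrichments of 16.1, 15.9, 18.5 and 19.6 in WTAkita libraries and 16.2, 18.9 and 17.8 in Ctrl libraries. Cbfb encodes the partner of the RUNX factors, and its site 89 bp beyond the end had 11.1, 9.69, 13.9 and 14.6 in WTAkita libraries and 12.6, 17.6 and 14.2 in Ctrl libraries. The groups overlapped at both sites as deposited. At Cbfb every WTAkita value was below every Ctrl value after normalization, with a difference of −0.20 ± 0.11 (SE), which was −0.11 without Ctrl 2 and −0.12 without WTAkita 2. The site 469 bp beyond Lmo2, a gene of the blood stem cell complex with Tal1, had 8.58, 11.4, 11.3 and 11.7 in WTAkita libraries and 9.88, 11.5 and 10.3 in Ctrl libraries.

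Of 49 receptor and surface genes, 11 (22.4%) had a site, with 8 of 14 sites called in all 7, 5 above 0 and 3 below. At Procr, the endothelial protein C receptor and a stem cell marker, the site with the AP-1 core printed above had fold enrichments of 10.9, 11.9, 13.2 and 12.5 in WTAkita libraries and 12.1, 14.5 and 14.8 in Ctrl libraries. At Il6st, which encodes the signalling receptor gp130, they were 10.7, 9.98, 12.5 and 16.7 in WTAkita libraries and 11.7, 14.0 and 14.6 in Ctrl libraries. The groups overlapped at both. At Tgfbr2, a receptor of TGF-β, they were 9.19, 10.8, 11.7 and 11.2 in WTAkita libraries and 10.2, 10.3 and 10.5 in Ctrl libraries, which lay within the WTAkita range.

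Of 49 genes of inflammation, the inflammasome and the receptor AGER, 7 (14.3%) had a site. Of the 6 called in all 7 libraries 5 had a difference above 0 and 1 below, with a median of 0.14, against 0.0060 over all sites tested, and none had an unadjusted p under 0.05 in limma. At Irak3, a negative regulator of Toll-like receptor signalling, fold enrichment was 10.1, 14.2, 14.2 and 14.2 in WTAkita libraries and 10.2, 13.5 and 13.4 in Ctrl libraries. The difference was 0.16 ± 0.11 (SE), and −0.023 with pileup per tag, where the median over all sites was −0.12. It was 0.09 without WTAkita 2 or without Ctrl 1, and 0.05 without the 3 libraries of lowest enrichment. The interferon-induced genes Ifit1 and Ifit3 had weaker sites. Ifit3 had 3.63, 4.75, 5.42 and 5.88 in WTAkita libraries and 3.31, 5.23 and 5.73 in Ctrl libraries, with overlapping groups.

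A site was present at 5 of 62 genes of the respiratory chain and glycolysis (8.06%) and at 3 of 38 of oxidative stress (7.89%), close to the 9.36% of all autosomal protein-coding genes. The site 109 bp beyond Gsr, glutathione reductase, was the strongest of them, with 11.1, 17.3, 21.1 and 24.8 in WTAkita libraries and 17.0, 24.4 and 20.9 in Ctrl libraries. WTAkita 1 lay lowest and WTAkita 4 highest of all 7 libraries. Of 50 genes of DNA methylation and chromatin 5 (10%) had a site. Among them the sites of Tet1 and Tet2 were called in all 7 libraries, with differences of −0.11 at Tet1 and −0.12 at Tet2. Tet1 and Tet2 encode enzymes that oxidize methylated cytosine, and the Tet1 site had 8.47, 7.79, 13.4 and 18.3 in WTAkita libraries and 9.72, 14.3 and 15.0 in Ctrl libraries. The WTAkita values enclosed the Ctrl values.

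Of 38 genes of pre-mRNA 3′ end processing and termination, 3 (7.89%) had a site at their own 3′ end. Papola encodes poly(A) polymerase α. Its site 296 bp beyond the end, which held a CTCF core, had fold enrichments of 10.5, 11.4, 14.4 and 12.6 in WTAkita libraries and 7.66, 12.2 and 12.5 in Ctrl libraries. Ctrl 1 lay below all other libraries, and the difference of 0.28 ± 0.13 (SE) was 0.11 without it and up to 0.38 without another library. The site at Cstf1, a subunit of the cleavage stimulation factor, was weak, at percentile 15.6, and that at Pabpc1, a poly(A)-binding protein gene, was called in 5 libraries. No site of these lists had an unadjusted p under 0.05 in limma.

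The 56 sites called in all 7 libraries and shared by the ends of genes on opposite strands had a median difference of −0.04, which was not tested. At Ppp1r1a, a phosphatase inhibitor gene, and Pde1b, a phosphodiesterase gene, the shared site had fold enrichments of 13.7, 18.5, 18.4 and 20.9 in WTAkita libraries and 14.8, 20.3 and 20.02 in Ctrl libraries. At Trp53i13 and Git1 the shared site had 13.1, 16.8, 19.6 and 20.5 in WTAkita libraries and 16.9, 20.2 and 19.0 in Ctrl libraries. Both held a CTCF core, and in both WTAkita 1 was the lowest library. Near noncoding starts, the site 80 bp beyond Bean1 with the CTCF core printed above had 15.3, 16.3, 19.3 and 22.2 in WTAkita libraries and 16.9, 20.3 and 19.5 in Ctrl libraries. The start of the antisense gene Gm45892 lay 903 bp from it.

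Across libraries the order of the members was kept. Over the 1287 members, Spearman's rho between the fold enrichments of any 2 libraries was 0.930 to 0.959, against 0.923 to 0.957 over all sites called in all 7. The points of such a correlation share the sequence and the mappability of the sites, so it is given as a description.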

How the data were processed

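ATAC-Seq was performed on LSK cells in 4 WTAkita and 3 Ctrl libraries, grouped by the submitters' labels. Reads were trimmed (Trim Galore 0.4.2, cutadapt 1.9.1) and mapped to mm10 (Bowtie2 2.3.4.1) by the authors, who dropped duplicates and ran MACS2, version 2.1.4 per the submitters' processing notes, once per library and with no control library. Fold enrichment, as deposited, is the ratio of summit pileup to local background within a library, with no scaling across libraries. Deposited −log10 p-values and q-values depend on depth and were used for stricter peak thresholds only. The deposited score was not used. Peak positions and chromosome lengths matched GRCm38.

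Gene ends, starts, coding exons and UTRs came from GENCODE vM21, and sequence from the RefSeq copy of the same build. Summit pileups were solved from fold enrichment and −log10 p and were whole, within 0.02, for at least 99.9957% of autosomal peaks. For pileup per tag, the tags of a library were estimated from its most common background level, not counted from reads. The median summit pileup of the members was 41 to 55 tags in a library, so single values carry counting error. A site with several summits in a library took the highest fold enrichment. Log2 values of the sites called in all 7 libraries were quantile-normalized and fitted with limma 3.58.1, using a mean-variance trend and Benjamini-Hochberg adjustment, in R 4.3.3. The code was tested on simulated data. Python 3.11.15, numpy 2.4.6, pandas 2.3.3 and pysam 0.24.0 were used for the rest. The mean chi-square of pileups between libraries at the members was 1.03 (WTAkita 3 with Ctrl 3) to 2.12, and no 2 libraries of a group were taken as 1.

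Members and lists were chosen with earlier results of these data known. Named sites were the 12 of highest mean percentile, the 6 higher and 6 lower ones of largest moderated statistic whose groups do not overlap, sites called in 1 group only and untouched in the other, the 3 strongest sites of each list, at opposite ends and near noncoding starts. Not all of these are described, 1 withheld item is not reported here, and sites called in 1 group only, Clk1, Mustn1 and Sema6c were named after their values were seen. Alternatives covered how sites are built, distances, peak thresholds, pileup per tag, normalization, GC content, trend, replicate block, libraries of low enrichment and each library left out in turn. Those for the density around the 3′ end and the CTCF core share were added after seeing the data. RNA-seq and bisulfite data were not analysed here.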

Additional observations from a re-analysis of the deposited data

Results flagged for a closer look

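In each of 53 groups of 4 WTAkita values, the gap of the most distant library to its neighbour was compared with the range by Dixon's criterion, which flags about 5% of groups by chance. In 4 a library stood apart. The WTAkita 1 library had a fold enrichment of 8.58 at Lmo2, against 11.3 to 11.7 in the other WTAkita libraries. At Irak3 the same library had 10.1, against 14.2 in each of the others. WTAkita 1 also had the lowest median fold enrichment of all libraries. After normalization the WTAkita libraries had log2 values of 3.374, 3.623, 3.389 and 3.4 at Lmo2 and 3.611, 3.945, 3.72 and 3.67 at Irak3. WTAkita 1 was still lowest at both sites, but WTAkita 2 was then the most distant library. The part of the low enrichment of WTAkita 1 in the flagged values was not tested. At Nqo1, which encodes a quinone reductase, WTAkita 3 had a fold enrichment of 8.81, against 5.93 to 6.41. At Tet2, WTAkita 4 had 15.9, against 7.46 to 7.77 in the other WTAkita libraries and 8.90 to 12.4 in the Ctrl libraries.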

How the results depend on the processing

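No member passed an adjusted p under 0.05 in any of the 24 alternatives in which the test was run. In place of 29 members above and 33 below 0 at an unadjusted p under 0.05, there were 14 and 15 within 250 bp of the 3′ end (2.23% and 2.39% of 627 members) and 51 and 58 within 1000 bp (2.05% and 2.33% of 2490), against 1.8% and 2.08% of all sites. There were 48 and 21 without the 3 libraries of lowest enrichment (3.44% and 1.503% of members, against 2.62% and 2.29% of all sites), 2 and 7 with pileup per tag (0.155% and 0.544%, against 0.126% and 0.923%), 8 and 21 without normalization (0.622% and 1.63%, against 0.503% and 1.63%), and 19 to 36 and 21 to 55 with 1 library left out. The median difference was −0.13 with pileup per tag, where that of all sites moved to −0.12, −0.069 without normalization, against −0.056 over all sites, 0.0029 without the 3 libraries of lowest enrichment, and −0.017 to −0.0034 with 1 library left out. The 4 sites called only in WTAkita became 0 with summits joined within 300 bp, with merged peaks or with a peak p under 1e-05, 2 within 250 bp or with a q under 0.01, and 7 to 11 with 1 library left out. The 3 called only in Ctrl became 1 with merged peaks, 6 within 1000 bp and 4 to 13 with 1 library left out. Leaving a library out loosens the requirement in both groups, so higher counts follow from that as well. The rule gave 1145 sites within 250 bp and 4711 within 1000 bp. The share called in all libraries was 49.5% with summits joined within 75 bp, 62.7% within 300 bp, 64.9% with merged peaks, 47.8% with summits that meet the rule only, 57.0% at a peak p under 1e-05 and 54.8 to 56.2% with 1 library left out. Only Spon1, with −0.0090 and −0.0093, and Irak3, with −0.023 at pileup per tag, changed direction among the 16 sites followed. Of these 16, Irgq, Gstm3 and Pnliprp1 had a value in 21, 17 and 23 of the 24 alternatives. The ratio of densities around the 3′ end was 0.479 to 0.598 with 1 library left out, and the CTCF core share 22.9 to 23.4%. The causes were not tested.

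The labels do not say whether replicate numbers pair the libraries, and the main fit did not pair them. Same-numbered deviations from the group means correlated at 0.219, 0.023 and 0.066. With the replicate block 28 members above and 76 below 0 had an unadjusted p under 0.05 (2.18% and 5.91%, against 2.32% and 3.83% of all sites) and none had an adjusted p under 0.05. No Ctrl library shares the number of WTAkita 4, so that library adds nothing to the group difference in this fit. The effect of the block therefore cannot be told apart from that of leaving WTAkita 4 out, which alone gave 55 below 0 (4.28%, against 2.71%). Ctrl 1 and Ctrl 3 but not Ctrl 2 correlated best with their own number. Pileups of 9 to 11 tags at the weakest members limit what a missing call can show.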
